A study of Mus musculus with 22 samples.

Results

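The protein parts of the cytosolic ribosome are the subject here: 82 genes whose identifiers map to a protein-coding mouse Rpl or Rps symbol, with Rpsa and Rplp0 to Rplp2, out of 55414 genes in the count table. Of these, 51 encode proteins of the large subunit and 31 of the small subunit. The rule that chose them used names alone and no measured value, but it was set with earlier results of these data known. Pseudogene copies and the S6 kinase genes were left out. The RNA came from fibroblasts of mouse back skin, sorted as live cells that carried CD34 and PDGFRα and lacked the markers of vessel, blood, melanocyte and epithelial cells. All mice were operated on through an incision near the tail. The 3 EXP groups had an expanding hydrogel placed under the skin near the neck, and the 3 CTRL groups had the operation without it. Skin was taken on day 1 (4 CTRL and 5 EXP libraries), day 2 (3 and 3) and day 4 (4 and 3); the sources used here give no genotype, strain, age or sex. The labels number the libraries of a group but do not tie each to a single mouse, so p-values measure the spread between these libraries.

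Ribosomal proteins are made in near equal numbers, since each ribosome holds a single copy of almost all of them. Their mRNAs begin with a short run of C and T bases, the terminal oligopyrimidine (TOP) motif, through which the kinase complex mTORC1 and the RNA-binding protein Larp1 control their translation and stability. Growing and dividing fibroblasts make many ribosomes, and the transcription of these genes follows the demand for protein synthesis.

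The start regions of the genes the results turn on are shown because the members share this feature, which the rule did not use. RefSeq windows (GRCm38.p6) were found for 62 of the 82 genes, and 20 had none. The stretches below hold 40 bases before the first listed transcript start and the first 30 transcribed bases, and the longest run of C and T in each, or both runs where 2 tie, is in capitals. Those of Rpsa and Rps27l lie at chr9:120127726-120127795 on the plus strand and chr9:66946046-66946115 on the plus strand. Those of Rps18 and Rps10 lie at chr17:33955636-33955705 on the minus strand and chr17:27635215-27635284 on the minus strand. Those of Rpl13a and Rplp2 lie at chr7:45128716-45128785 on the minus strand and chr7:141447611-141447680 on the plus strand. The stretch of Rps24 lies at chr14:24490638-24490707 on the plus strand, and that of Rps26 at chr10:128626477-128626546 on the minus strand.
Rpsa: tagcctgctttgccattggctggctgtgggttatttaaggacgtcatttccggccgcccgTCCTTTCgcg
Rps24: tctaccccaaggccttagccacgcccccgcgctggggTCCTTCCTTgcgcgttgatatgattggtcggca
Rps18: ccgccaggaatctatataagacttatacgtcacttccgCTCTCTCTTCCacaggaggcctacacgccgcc
Rps10: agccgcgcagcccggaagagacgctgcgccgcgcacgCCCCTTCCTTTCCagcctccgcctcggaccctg
Rps26: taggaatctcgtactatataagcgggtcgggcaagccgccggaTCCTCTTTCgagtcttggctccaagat
Rps27l: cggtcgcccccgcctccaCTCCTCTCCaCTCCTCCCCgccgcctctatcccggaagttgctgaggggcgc
Rpl13a: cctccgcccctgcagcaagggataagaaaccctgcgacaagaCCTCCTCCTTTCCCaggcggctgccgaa
Rplp2: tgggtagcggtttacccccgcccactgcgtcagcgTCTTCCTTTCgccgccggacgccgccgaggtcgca

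In Rps24, Rps18, Rps10 and Rplp2 the run crosses the start, and in Rpl13a and Rps26 it begins within the first 4 transcribed bases. The run of Rps10 is 13 bases long and that of Rpl13a 14. In Rpsa the longest run has 7 bases and begins at transcribed base 21, and Rps27l has 2 runs of 9 bases, both upstream, which begin 22 and 12 bases before the start. A run of at least 7 letters that are each C or T, read on the gene's strand within 50 bases of the start, was present in 55 of the 62 members with a window (88.7%) and in 50.4% of the 27025 genes with one. The letters CTTTCC, which are all C and T and so can lie inside such a run, were in 27.4% of the members and 4.67% of all genes in the same stretch and strand. The letters CCGGAAG, searched on both strands of the 300-base window, were in 38.7% of the members and 9.12% of all genes. Their reverse complement ends in GG but shares the letters CTTCC with C and T runs. GGGCGG was in 59.7% and 35.9%, and TATAAA in 9.68% and 14.2%. These shares describe letters near annotated starts and not sites of binding.

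Counts per library ran from 21461294 to 30210204, and values below are counts scaled to a common library total (CPM), here with TMM factors, which assume that most genes do not change. Of the 17554 genes with enough counts to test, 80 were members. Rpl10l, a testis paralogue, had no count in any library, which allows at most 0.0993 to 0.140 CPM depending on the library (3 counts, counting error only). Rpl3l, the heart and skeletal muscle paralogue, had 1 count in 1 library. In 7 libraries, D1 CTRL 1 to 3, D1 EXP 1 and 2 and D4 CTRL 3 and 4, a set of 192 genes that holds 0 members was higher than in the other 15. The gap in mean log2 CPM ran from 4.13 to 4.83, it crosses the groups, the labels name no batch, so both sets, called split-high and split-low, are set beside the results. Among the sorted-cell markers, 9 fibroblast genes, the collagen genes Col1a1 and Col3a1 among them, summed to 68853 to 408809 CPM. Endothelial markers summed to 10.7 CPM or less in all libraries, keratinocyte markers to 2.30 to 48.3 CPM and immune markers to 37.1 to 165 CPM.

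The members together took 0.220% to 0.981% of all counts in a library. On day 1 their share was 0.308, 0.343, 0.360 and 0.384% in the CTRL libraries and 0.546, 0.744, 0.981, 0.730 and 0.635% in the EXP libraries. All 5 EXP values lay above all 4 CTRL values, and the mean share was 2.09-fold higher in EXP. On day 2 the share was 0.332, 0.460 and 0.326% in CTRL and 0.731, 0.542 and 0.607% in EXP, 1.68-fold higher with no overlap, although outside the 10 most abundant genes the highest CTRL library (0.710%) reached the lowest EXP library (0.705%). On day 4 it was 0.346, 0.448, 0.220 and 0.302% in CTRL and 0.851, 0.785 and 0.435% in EXP. The mean was again 2.10-fold higher, but EXP 3 fell inside the CTRL range.

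A share depends on what else is in the library. The fibroblast markers, which are among the most abundant mRNAs here, summed to 210913 to 284247 CPM in D1 CTRL and 94145 to 171210 CPM in D1 EXP. On day 2 they summed to 328691 to 408809 CPM in CTRL and 68853 to 171586 CPM in EXP, and on day 4 to 267583 to 369715 and 83643 to 280658 CPM. The markers did not all move together. Of the 9, 1 rose on each day, and 4, 5 and 3 fell on days 1, 2 and 4. On TMM-scaled totals the summed CPM of the members was 1.82-fold higher in EXP on day 1, 1.21-fold on day 2 and 1.66-fold on day 4. It was 5082, 5276 and 5778 CPM in the D2 EXP libraries and 3995, 4145 and 5156 CPM in D2 CTRL, so the scaled sums overlapped on day 2 where the shares did not. The part of the lower marker sums in the share was not tested. In bulk RNA, fewer cells of a type and less RNA per cell cannot be told apart.

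**Figure D1:**
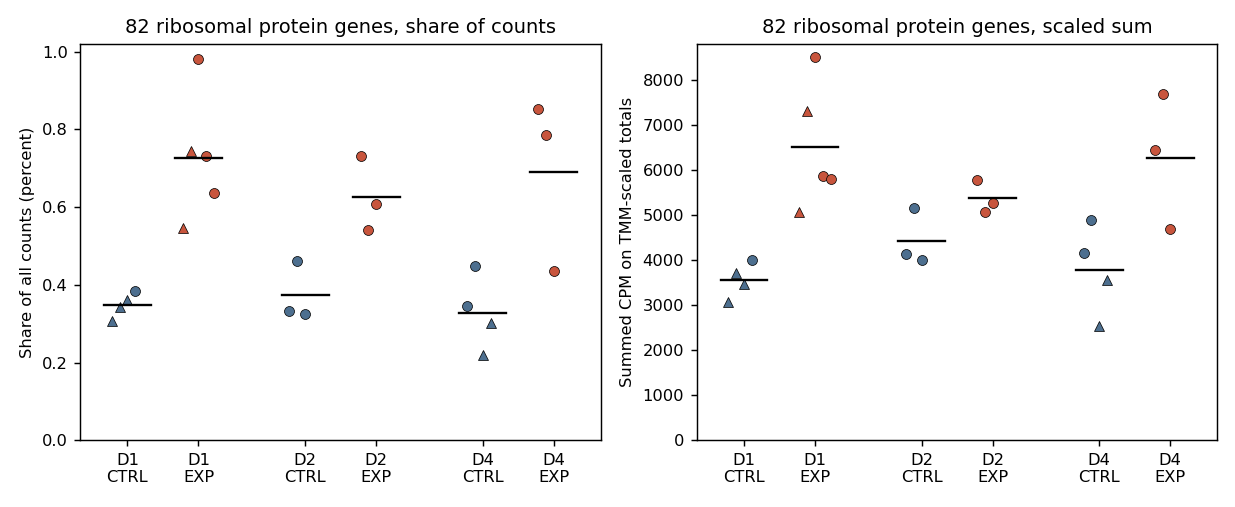
Each point is 1 library, in blue for CTRL and red for EXP, and black lines are group means; triangles are the 7 split-high libraries and circles the 15 split-low ones. The left axis is the percent of all counts taken by the 82 genes and the right axis their summed CPM; on day 1 all EXP points lie above all CTRL points on both, and on day 4 EXP 3 lies at 0.435% and 4690 CPM, among the CTRL points.

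Levels per kilobase of transcript differed 302-fold between the highest and lowest tested member, with a median of 32.0 CPM per kilobase. Among the highest were Rpl41 at 605, Rpl4 at 287 and Rps14 at 223 CPM per kilobase. Rpl41 encodes the shortest ribosomal protein, Rpl4 lines the nascent chain tunnel, and Rps14 is a small-subunit protein. The lowest were Rpl21 at 2.00, Rpl23a at 2.65 and Rpl29 at 3.56 CPM per kilobase. Such a spread between proteins of a single complex is a spread of counts, and these genes have many processed copies in the genome. The table holds 307 annotated Rpl and Rps pseudogenes, and their rows took 0.220% to 1.06% of counts, about as much as the members. Windows of 50 bases were taken from 1 annotated principal transcript of each member. Of a member's windows, 0% to 98.6% (Rps27) were also found in a transcript of another gene, with a median of 43.5%. Other transcripts of the members were not examined. How the authors counted reads that match several genes is not given in the sources used here, so the level of a member with many copies is uncertain. In addition, 38 members overlap exons of another annotated gene, small nucleolar RNAs among them, and counting by strand is not stated. Across the 80 tested members the level per kilobase and the percent of windows shared had Pearson's r = -0.27 and Spearman's rho = -0.26, a description over genes that share the same libraries.

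**Figure D2:**
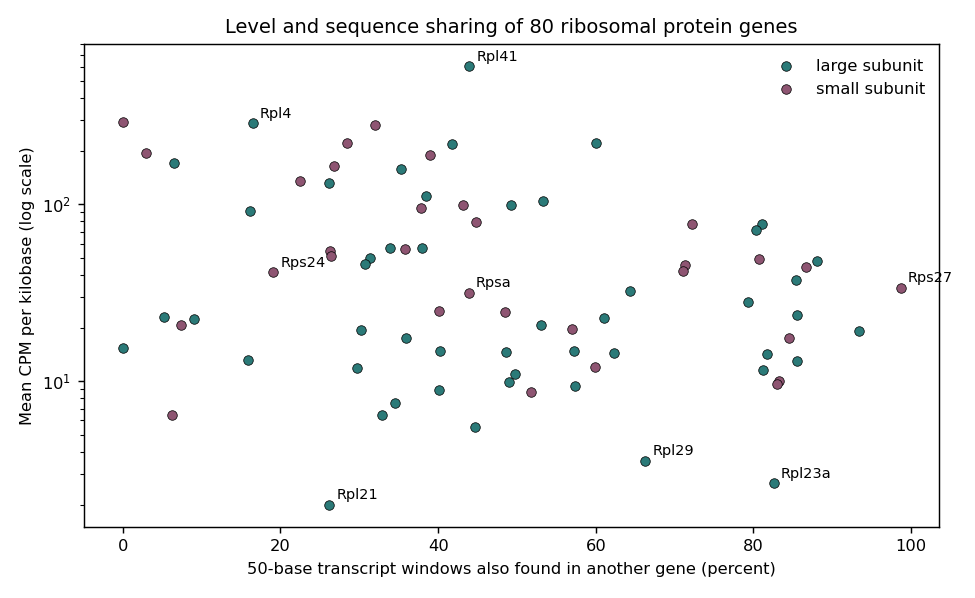
Each point is 1 of the 80 tested members, placed by the percent of its 50-base transcript windows found in another gene (x axis) and its mean CPM per kilobase over 22 libraries (y axis, log scale). Rpl41 stands at 605 with 43.9% shared and Rpl23a at 2.65 with 82.6%.

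On day 1 ribosomal protein mRNAs were higher in fibroblasts from expanded skin as a group. Of 80 tested members, 71 rose and 0 fell (edgeR quasi-likelihood, adjusted p under 0.05), where 13.9% of all tested genes rose, 14.7% fell and 28.6% changed in either direction. The median log2 fold change was 0.88, against 0.02 over all genes, and it ran from 0.38 for Rpl28 to 1.92 for Rpsa. All 80 estimates were above 0. In 61 members each EXP library was above each CTRL library, which held for 11.7% of all genes. Both subunits took part, with 43 of 49 large-subunit members (median 0.84) and 28 of 31 small-subunit members (median 0.90) called. The 9 members that did not pass were Rpl28, Rpl7l1, Rpl35, Rpl23a, Rps29, Rpl10, Rps27, Rps2 and Rpl34, with estimates from 0.38 to 0.84. Among the split-high libraries of day 1 alone (3 CTRL and 2 EXP) 33 members were called, and the median there was 0.86. The share of all genes that rose in that smaller fit is not given here.

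On day 2 a single member rose, Rps27l, and 0 fell, where 7.72% of all genes rose, 5.71% fell and 13.4% changed. At an unadjusted p under 0.05 there were 7 members (8.75%), all higher in EXP, where 15.1% of all genes were higher at that p. With limma voom 8 of the 80 members rose, where 13.5% of all genes did. The median log2 fold change was 0.28 against 0.02 over all genes, and 73 of 80 estimates were above 0. In 20 members the EXP libraries were all above the CTRL libraries, against 20.9% of all genes. Library totals without TMM gave 30 calls (37.5%), where 23.9% of all genes rose, and a fit to the 6 day 2 libraries alone gave 7 (8.75%), where 11.9% did. Library totals moved the median of all genes to 0.49 on day 2, and to 0.21 and 0.36 on days 1 and 4. Relative to that shift the members' median was 0.27 on day 2, as under TMM (0.26).

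On day 4 there were 31 members that rose and 0 that fell, where 12.8% of all genes rose, 9.66% fell and 22.5% changed. The median was 0.62 against 0.03 over all genes, and 79 estimates were above 0; the exception was Rpl9 at -0.02 (adjusted p = 0.963 by edgeR's quasi-likelihood test). All 31 were also among the 71 called on day 1, which is 43.7% of those 71. Of all tested genes, 4.63% rose on both days. In 15 members the EXP libraries were all above the CTRL libraries, against 13.8% of all genes. The day 4 count rests on few libraries. It was 5 without EXP 2, 11 without EXP 1, 13 without CTRL 3 and 52 without EXP 3, with medians between 0.44 and 0.85. The share of all genes that rose in these refits is not given here, so the changes in count are not read as particular to the members. The split-high libraries CTRL 3 and 4 had summed member CPM of 2536 and 3552, and the split-low CTRL 1 and 2 had 4151 and 4902. Among the 5 split-low libraries of day 4 the median was 0.38 and 1 member was called (1.25%, where 3.25% of all genes rose). A fit to the 7 day 4 libraries alone also called 1, where 4.68% rose. Mature adipocyte markers summed to 1.80, 113 and 342 CPM in the D4 EXP libraries and to at most 1.11 CPM in D4 CTRL. The library with 342 CPM was EXP 3, which had the lowest member share of the EXP libraries, and the part of these cells in the result was not tested. Endothelial markers summed to 2.28 to 10.7 CPM in D4 EXP and 0.168 to 2.83 CPM in D4 CTRL. Of the 4 tested, 2 rose (median log2 fold change 2.61), and their part was not tested either. Pericyte and smooth muscle markers summed to 28.2 to 42.9 CPM in D4 EXP and 15.6 to 25.7 CPM in D4 CTRL. On day 2 they summed to 19.0 to 37.6 CPM in EXP and 7.37 to 16.1 CPM in CTRL. Of the 5 tested, 1 rose on each of these days (medians 0.38 on day 4 and -0.002 on day 2). Their part was not tested.

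**Figure D3:**
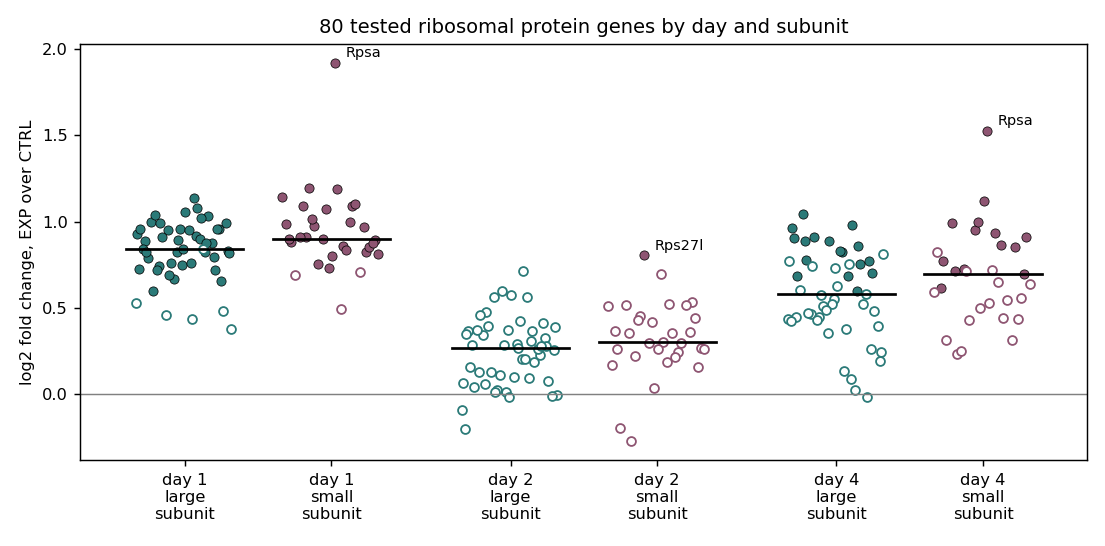
Each point is 1 of the 80 tested members and the y axis is its log2 fold change of EXP over CTRL; filled points passed an adjusted p under 0.05 and black lines are medians, by day and subunit. Day 1 holds 71 filled points, day 2 only Rps27l, and day 4 31, with Rpsa highest on days 1 and 4.

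Rpsa, a protein of the small subunit's platform that also serves as a laminin receptor, had the largest estimate on days 1 and 4. On day 1 it was at 12.4, 15.2, 14.7 and 47.0 CPM in CTRL and 52.3, 83.4, 108, 101 and 78.8 CPM in EXP. The groups did not overlap, but CTRL 4 stood close to the lowest EXP library and far above the other 3 controls. The log2 fold change was 1.92 (SE 0.36, edgeR quasi-likelihood adjusted p = 5.53e-04), and 2.58 without CTRL 4. That library is the split-low one of this group, and among the split-high libraries the value was 2.26 (adjusted p = 0.00188). Over 21 alternatives the estimate ran from 1.26 to 2.58 and the adjusted p from 6.13e-07 to 0.00614. On day 2 Rpsa was at 46.3, 50.3 and 37.6 CPM in CTRL and 87.2, 61.4 and 68.9 CPM in EXP. These groups did not overlap either, yet the difference of 0.70 (SE 0.41) did not pass (edgeR adjusted p = 0.285). On day 4 it was at 20.3, 51.5, 35.1 and 46.2 CPM in CTRL and 99.0, 146 and 85.2 CPM in EXP, with every EXP library above every CTRL library. The day 4 rise of 1.53 (SE 0.38, edgeR adjusted p = 0.00914) fell to 1.25 (adjusted p = 0.0629) without EXP 2, and the other 18 alternatives kept the call (lowest adjusted p = 0.0012). Of its transcript windows 43.9% were found in other genes, and 9 pseudogenes carry its name.

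Rps24 and Rps18, both small-subunit proteins, followed Rpsa on day 1 with log2 fold changes of 1.20 (SE 0.19) and 1.19 (SE 0.18). Rps24 was at 38.3, 40.8, 47.1 and 39.1 CPM in D1 CTRL and 91.1, 92.4, 134, 85.8 and 71.3 CPM in D1 EXP, well apart. By day 2 it was at 49.2, 70.9 and 53.3 CPM in CTRL and 58.6, 79.0 and 64.6 CPM in EXP, which overlap. On day 4 the groups overlapped as well, with 63.0, 66.0, 41.7 and 68.4 CPM in CTRL and 63.1, 87.8 and 62.1 CPM in EXP. The estimates for those days, 0.22 (SE 0.22) and 0.25 (SE 0.21), did not pass. Rps18 was at 14.4, 16.1, 15.9 and 13.3 CPM in D1 CTRL and 36.9, 34.0, 44.4, 29.6 and 24.9 CPM in D1 EXP, again with no overlap. Its estimates were 0.30 (SE 0.21) on day 2 and 0.53 (SE 0.20) on day 4, and neither passed, although the day 4 value passed in 7 of 19 alternatives (adjusted p from 0.00593 to 0.0493). Rps10, a small-subunit protein near the mRNA entry, rose on day 1 by 1.14 (SE 0.20) and was at 0.51 (SE 0.24) and 0.59 (SE 0.23) on days 2 and 4. On day 4 Rps10 passed in 3 of 19 alternatives, the DESeq2 test, library totals and pseudogenes summed (adjusted p = 0.0453, 0.0114 and 0.0220).

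Rps27l is a paralogue of the small-subunit zinc finger protein Rps27 and is known as a p53 target. It was the member called on day 2, at 33.4, 48.1 and 32.8 CPM in CTRL and 57.4, 69.0 and 73.4 CPM in EXP. All 3 EXP libraries lay above the controls, and the log2 fold change was 0.81 (SE 0.25, edgeR adjusted p = 0.0371). The call ended without any single one of CTRL 1 (0.71, adjusted p = 0.148), CTRL 3 (0.69, adjusted p = 0.156), EXP 1 (0.91, adjusted p = 0.0634), EXP 2 (0.77, adjusted p = 0.0882) or EXP 3 (0.72, adjusted p = 0.134). Over 18 alternatives 12 kept the call, with adjusted p from 0.00173 to 0.156. On day 1 it rose by 0.76 (SE 0.21) and on day 4 the estimate was 0.43 (SE 0.23). Rps27l was the member whose day 2 estimate was above its day 1 estimate; in the other 79 the day 1 estimate was higher. Its parent Rps27, 98.6% of whose windows occur elsewhere, was at 0.69 (SE 0.26) on day 1 and missed the threshold (edgeR adjusted p = 0.0503). Rps27 passed in 8 of 21 alternatives (lowest edgeR adjusted p = 0.0204, with the replicate block).

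Rps26, which lines the mRNA exit channel of the small subunit, and Rpl36a of the large subunit were among the largest rises on day 4 after Rpsa. Rps26 was at 49.6, 59.4, 23.3 and 38.6 CPM in D4 CTRL and 113, 107 and 57.8 CPM in D4 EXP, where EXP 3 fell below the highest control. It rose by 1.12 (SE 0.28) on day 4 and 0.80 (SE 0.25) on day 1, and had 0.95 (adjusted p = 0.0541) on day 4 without EXP 1. The day 1 call ended without CTRL 1 (0.75), CTRL 2 (0.74), CTRL 3 (0.78) or EXP 3 (0.70). Rpl36a rose by 1.05 (SE 0.32) on day 4 and lost the call without any of EXP 1, EXP 2 or CTRL 3 (0.93, 0.79 and 0.85). Rps14 and Rps28, also of the exit channel, rose on day 1 by 0.73 and 0.81. Both calls ended without CTRL 1, CTRL 3 or EXP 3 of day 1, and that of Rps14 without EXP 2 as well (0.61 to 0.67 for Rps14, 0.67 to 0.76 for Rps28).

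**Figure D4:**
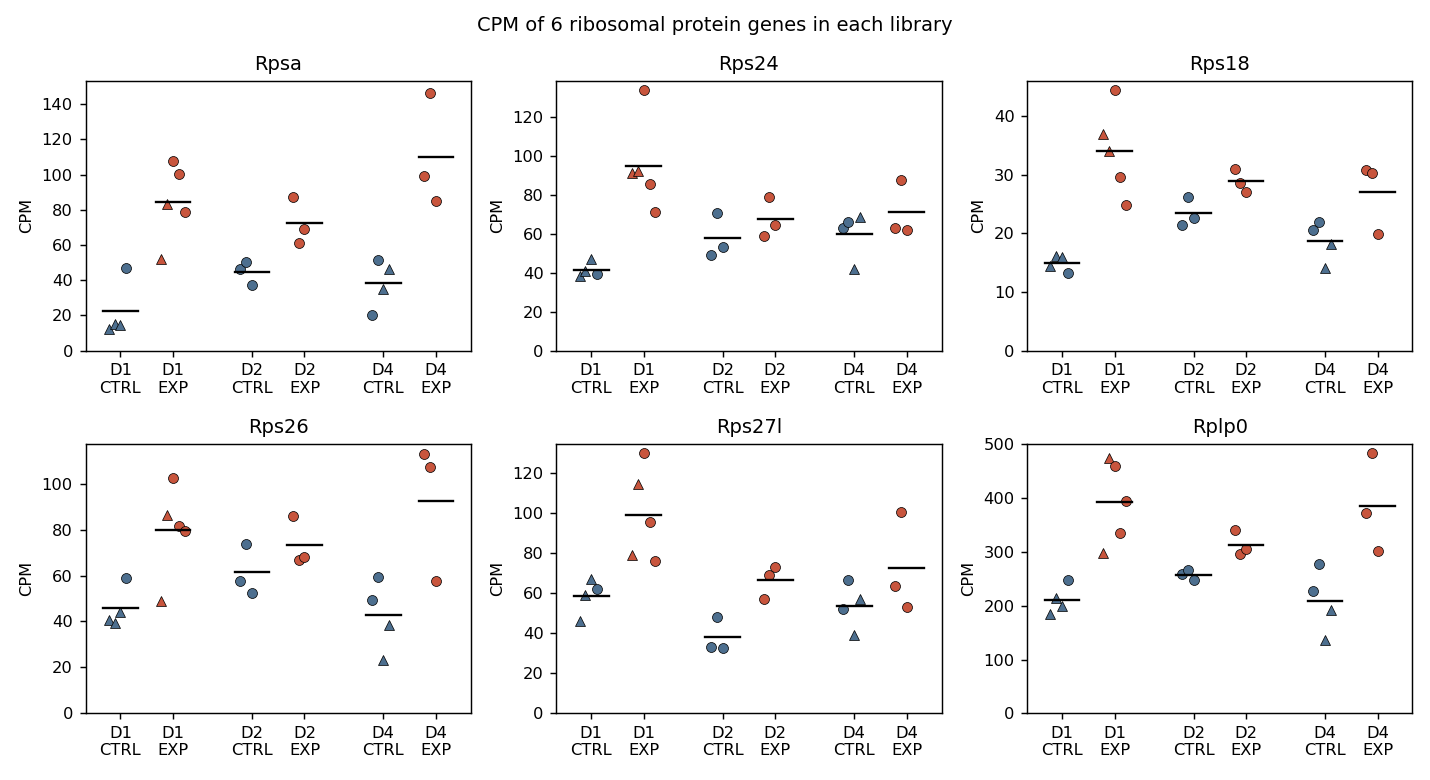
Each panel shows the CPM of 1 member in each of 22 libraries, blue for CTRL and red for EXP, with group means as lines; triangles mark the 7 split-high libraries. Rpsa and Rps24 have no overlap on day 1, D1 CTRL 4 is at 47.0 CPM for Rpsa, and Rps24 overlaps on days 2 and 4.

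The P stalk recruits the elongation factors to the ribosome. All 3 of its members rose on days 1 and 4, and 0 of 3 passed on day 2, where 1 had an unadjusted p under 0.05. Rplp0, the base of the stalk, was at 185, 214, 198 and 247 CPM in D1 CTRL and 297, 474, 459, 334 and 394 CPM in D1 EXP. On day 4 it was at 228, 278, 136 and 192 CPM in CTRL and 372, 483 and 302 CPM in EXP. Neither day had overlap, and the log2 fold change was 0.89 on both (SE 0.19 and 0.21). Rplp1 and Rplp2, the acidic arms, had 0.96 (SE 0.26) and 1.02 (SE 0.22) on day 1 and 0.96 (SE 0.29) and 0.98 (SE 0.25) on day 4. Without D4 EXP 2 the day 4 values of Rplp0, Rplp1 and Rplp2 were 0.68, 0.68 and 0.77, and none of the 3 passed; Rplp1 was also lost without D4 CTRL 3 (0.76) and without D4 EXP 1 (0.98).

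Around the exit of the nascent chain, 5 of 7 members rose on day 1 (Rpl17, Rpl19, Rpl26, Rpl31 and Rpl39) and 0 passed on day 4, where 3 had an unadjusted p under 0.05. Rpl23a and Rpl35 had estimates of 0.48 (SE 0.38) and 0.46 (SE 0.27) on day 1. Rpl5 and Rpl11, which with 5S rRNA bind the p53 regulator Mdm2, both rose on day 1 (0.82, SE 0.19, and 0.74, SE 0.20). Rpl5 also rose on day 4 (0.68, SE 0.22) and Rpl11 did not pass (0.47, SE 0.22). Rps3, at the mRNA entry, rose on days 1 and 4 (1.09, SE 0.21, and 0.71, SE 0.23), while its neighbour Rps2 did not pass on either. Of the late joining large-subunit proteins, Rpl24 rose on day 1 by 1.06 (SE 0.28) and Rpl10 was at 0.53 (SE 0.22). Rpl10 passed in 5 of 21 alternatives (lowest edgeR adjusted p = 0.0384, with library totals). Rps6, the substrate of S6 kinase, rose by 0.90 (SE 0.20) on day 1 and 0.62 (SE 0.22) on day 4. Rps27a, made as a fusion with ubiquitin, rose by 1.10 (SE 0.25) on day 1 and was at 0.55 (SE 0.28) on day 4. On day 4 the calls of Rpl5 and Rps3 ended without any of CTRL 3, CTRL 4, EXP 1 or EXP 2 (0.57 to 0.66, and 0.52 to 0.70). That of Rps6 ended without these or CTRL 1 (0.37 to 0.69). On day 1 that of Rpl17 ended without CTRL 1, CTRL 3, CTRL 4 or EXP 3 (0.72 to 0.80).

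Paralogues stood beside their parents as follows, with no test of the difference within a pair. Rpl22l1 was at 0.90 (SE 0.23) and Rpl22 at 0.73 (SE 0.23) on day 1, and both rose; on day 4 they were at 0.09 (SE 0.26) and 0.42 (SE 0.25). The day 1 call of Rpl22 ended without CTRL 1, CTRL 3 or EXP 3 (0.57 to 0.68). Rpl39l, known from testis, was at 0.99 (SE 0.27) and Rpl39 at 1.08 (SE 0.26) on day 1, and both rose. Rpl7 rose on day 1 (0.69, SE 0.19), and Rpl7l1, a nucleolar relative, did not pass (0.43, SE 0.18). Rpl7l1 did pass in 5 of 21 alternatives (lowest edgeR adjusted p = 0.00481, with library totals). Rpl3, parent of Rpl3l, rose by 0.72 (SE 0.17) on day 1.

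Members with few and with many shared windows can be set side by side. Of the 12 tested members with under 20% of windows shared, 11 rose on day 1 and 6 on day 4, with medians of 1.01 and 0.73. Of the 32 with at least 50% shared, 28 rose on day 1 and 11 on day 4, with medians of 0.90 and 0.57. The pseudogene rows themselves moved in the same direction: of 186 tested, 113 rose on day 1, 2 on day 2 and 80 on day 4, with medians of 0.95, 0.37 and 0.83. Reads of a member and of its copies cannot be told apart here. Ribosomal protein transcripts are short, and 546 other protein-coding genes with a longest transcript of at most 1000 bases had medians of -0.03, 0.20 and 0.43 on days 1, 2 and 4. Members of that length had 0.88, 0.26 and 0.72. A fit with a trend on the longest transcript length as an offset was added after seeing the data. It called 71, 1 and 20 members on the 3 days. Their medians were 0.87, 0.17 and 0.39 over the 80 members, against 0.88, 0.28 and 0.62 without the offset. All genes had medians of 0.10, -0.03 and -0.02 under that offset. It called 5197, 2512 and 3717 of all tested genes on days 1, 2 and 4, of which 59.0%, 51.6% and 51.6% were higher in EXP. Without it 5017, 2359 and 3943 were called, of which 48.7%, 57.5% and 57.0% were higher. The lower day 4 count of members thus stood beside fewer rising genes among all.

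The estimate was larger on day 1 than on day 2 in 79 of 80 members, larger on day 1 than on day 4 in 66, and larger on day 4 than on day 2 in 67. The joint test of whether the effect of the expander differed between days called 1 member, Rps24 (adjusted p = 0.0373 by edgeR's quasi-likelihood test), where 8.82% of all genes were called, and 8 of the 80 members had an unadjusted p under 0.05, as did 25.6% of all genes. The effect on Rps24 was lower by 0.98 on day 2 and by 0.95 on day 4 than on day 1, on the log2 scale. Leaving out each of the 22 libraries kept this call in 10 fits, with adjusted p between 0.0192 and 0.0757. It ended without any of D1 CTRL 1 to 4, D1 EXP 3, D2 CTRL 2, D2 EXP 1, D2 EXP 3, D4 CTRL 1, 2 or 4, or D4 EXP 1. The next by p were Rps18 (adjusted p = 0.0728), Rps12 (adjusted p = 0.100), Rpl27 (adjusted p = 0.155) and Rps15a (adjusted p = 0.168), all by edgeR. The day differences of the other members were therefore not established by this test.

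Within EXP, the joint change over days called Rpl13a (adjusted p = 0.0449 by edgeR's quasi-likelihood test), where 14.3% of all genes were called. Rpl13a, a large-subunit protein also known for silencing the translation of inflammatory mRNAs, was at 12.2, 17.4, 19.1, 14.4 and 12.4 CPM on day 1, 10.3, 6.41 and 8.76 CPM on day 2 and 13.8, 10.2 and 6.67 CPM on day 4. Day 1 lay above day 2 in all libraries and overlapped with day 4, and the call held in 11 of 22 fits that left out a library (adjusted p from 0.0261 to 0.0997). It ended without any of D1 CTRL 1 to 4, D1 EXP 2 to 4, D2 EXP 2, D2 EXP 3, D4 CTRL 1 or D4 EXP 2. Within CTRL 0 members passed, where 0.291% of all genes did. There 6 of the 80 members had an unadjusted p under 0.05, as did 14.2% of all genes, and limma voom called 1 (1.25%), where it called 3.43% of all genes.

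Other genes of the ribosome outside the naming rule and of its supply were examined as lists. Over all tested genes 13.9%, 7.72% and 12.8% rose on days 1, 2 and 4, and 14.7%, 5.71% and 9.66% fell. All list counts in this and the following paragraphs stand beside these shares. Of 6 core ribosome genes, 2 rose on day 1, 0 on day 2 (2 at an unadjusted p under 0.05) and 1 on day 4. Rack1, a scaffold on the small subunit, rose on days 1 and 4 (1.07, SE 0.19, and 1.01, SE 0.21). Fau, which encodes a small-subunit protein fused to a ubiquitin-like peptide, rose on day 1 (0.99, SE 0.27). Of 21 other TOP mRNAs of translation, 13 rose on day 1, 4 on day 2 and 12 on day 4, with medians of 0.67, 0.38 and 0.60, and 0 fell. The elongation factor Eef1a1 rose on day 1 by 0.70 (SE 0.19), and Eef2, also an elongation factor, was at 0.27 (SE 0.13). Npm1, a nucleolar chaperone, rose by 1.54 (SE 0.26) on day 1 and 1.15 (SE 0.28) on day 4, the latter 0.66 and not called without EXP 1. The initiation factor subunit Eif3l rose on all 3 days (0.60, SE 0.11; 0.78, SE 0.14; 0.90, SE 0.13).

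Of 10 chaperones and importins that bring ribosomal proteins into the nucleus, 6 rose on day 1, 2 on day 2 and 3 on day 4. Grwd1, the chaperone of Rpl3, was at 13.4 ± 0.915 CPM (SD, n = 4) in D1 CTRL and 61.4 ± 18.9 CPM (SD, n = 5) in D1 EXP, a log2 fold change of 2.20 (SE 0.23). It rose by 0.99 (SE 0.27) and 0.80 (SE 0.25) on days 2 and 4. These calls ended without D2 CTRL 3 or D2 EXP 1 (0.85 and 0.90) and without D4 CTRL 3 or D4 EXP 2 (0.61 and 0.71). Tsr2, the chaperone of Rps26, rose on day 1 (0.92, SE 0.17) and was at 0.10 (SE 0.20) and -0.18 (SE 0.19) later. Of 7 noncoding hosts of small nucleolar RNAs with TOP starts, 6 rose on day 1, and on day 2 Snhg8 fell (-0.62, SE 0.21, lost without any 1 of the 6 day 2 libraries, -0.70 to -0.56) and 0 rose. None of the 7 passed on day 4, where 1 had an unadjusted p under 0.05. Snhg1 was at 1.37 (SE 0.23), -0.09 (SE 0.27) and -0.40 (SE 0.26) on days 1, 2 and 4.

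Among 20 genes of mTORC1 and TOP mRNA control, 7 rose and 2 fell on day 1. Larp1, which binds the TOP motif, rose by 0.76 (SE 0.20), and Eif4ebp1, a translation repressor that mTORC1 inactivates, by 0.78 (SE 0.17). Sesn2 and Ddit4, stress-induced inhibitors of mTORC1, rose by 1.14 (SE 0.17) and 1.56 (SE 0.40). Deptor, also an mTORC1 inhibitor, fell by 0.99 (SE 0.34), and Tsc2 by 0.43 (SE 0.15). The call of Deptor ended without any of CTRL 1, 2 or 4 or EXP 1, 2, 4 or 5 (-1.02 to -0.85), and that of Tsc2 without CTRL 1 to 3 or EXP 2, 3 or 5 (-0.44 to -0.34). On day 2 Eif4ebp1 alone rose (0.73, SE 0.20), a call that ended without any control or EXP 1 (0.66 to 0.75). On day 4 Rptor, a subunit of mTORC1, fell (-0.90, SE 0.32), which was lost without CTRL 3, CTRL 4, EXP 1 or EXP 2 (-0.90 to -0.65). The 77 tested mitochondrial ribosomal proteins, which build the separate ribosome of mitochondria, had 18, 7 and 28 that rose on days 1, 2 and 4 and 0, 1 and 0 that fell. Of all tested genes 13.9%, 7.72% and 12.8% rose on those days, so the day 2 count was near the share over all genes. The medians of the mitochondrial ribosomal proteins were 0.13, 0.34 and 0.52, with the highest on day 4, where the cytosolic members had theirs on day 1. A highest median on day 4 was not particular to them. The 546 protein-coding genes outside the members with a longest transcript of at most 1000 bases had -0.03, 0.20 and 0.43.

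**Figure D5:**
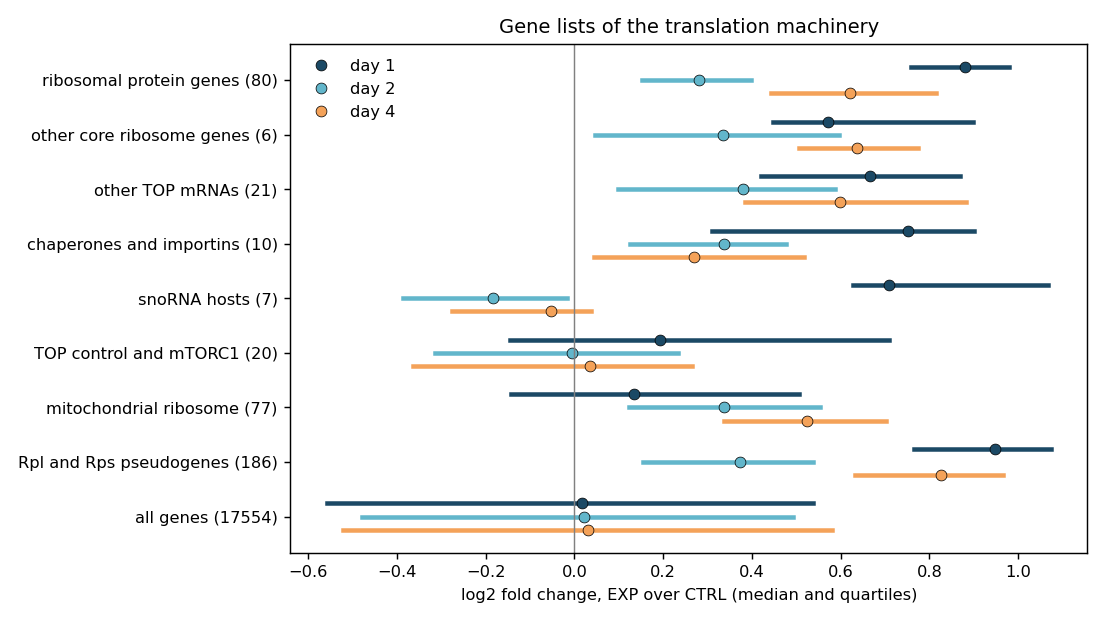
Points are the median log2 fold change of EXP over CTRL in each gene list on days 1, 2 and 4, bars run from the lower to the upper quartile of genes, and the number tested is in brackets. The cytosolic ribosomal protein genes have medians of 0.88, 0.28 and 0.62, and all genes lie at 0.02, 0.02 and 0.03.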

How the data were processed

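Fibroblast RNA was sequenced as ultra-low-input paired-end libraries, per the labels' protocols. The authors deposited raw counts per gene, with Ensembl identifiers. The submitters' processing notes name Trimmomatic and the build mm39; the aligner, counter, annotation release and strandedness are not given in the sources used here. GENCODE M21 named 52133 of 55414 identifiers. 0 columns lay outside the labels.

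The deposited counts went unchanged into edgeR 4.0.16 under R 4.3.3 (filterByExpr, minimum count 10; TMM; robust quasi-likelihood F-test on all 22 libraries, 16 residual degrees of freedom). P-values were adjusted by Benjamini-Hochberg over 17554 genes within each contrast and called under 0.05. In simulated data for the day 1 comparison, 200 of 17554 genes were changed, and 17153 genes were tested after the filter. The test recovered 5.97%, 23.9% and 65.2% of genes changed 1.5-, 2- and 4-fold, with 3 false calls among 66. Any changed gene that the filter removed counts there as not recovered. On the simulated day 2, where no gene was changed, it made 0 calls among 17153, so recovery was not simulated there. In the data 28.6% of tested genes were called on day 1, so the adjustment for many tests was stricter in the simulation. The recovered shares therefore do not give the sensitivity of the day 1 comparison in the data. Log2 CPM used a prior count of 2.

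The members and lists were chosen with earlier results of these data known, and the lists were written by hand. Named members are those with the 4 largest called changes on each day at a mean of at least 5 CPM, the smallest joint p-values, role groups, paralogue pairs, and the highest and lowest levels per kilobase; the members inside the exit, entry and late-joining roles and other list genes were named to illustrate counts after their values were seen. Some genes the rule names are not reported here. Alternatives were limma 3.58.1 voom, DESeq2 1.42.0, other scalings and filters, leaving out each library, a replicate block and the library split. Library split genes had a correlation above 0.9 to Rnf10.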

Additional observations from a re-analysis of the deposited data

Results flagged for a closer look

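Among 180 sets of values (a gene in a group of 4 or 5 libraries), 7 held a library far from the others by Dixon's test, where chance gives about 1 in 20, or 9. Rpsa was at 47.0 CPM in D1 CTRL 4 and at 12.4 to 15.2 CPM in the other 3. Rps10 was at 4.32 CPM in D4 CTRL 3, below 6.48 to 6.72 in the others. In D1 CTRL 1, Rpl39l was at 6.47 CPM (others 10.7 to 10.9), Rpl5 at 17.7 CPM (others 24.4 to 25.1) and Rpl29 at 1.28 CPM (others 1.65). Snhg1 was at 22.2 CPM in D1 CTRL 3 (others 14.5 to 14.9), and Larp1 at 66.7 CPM in D1 EXP 3 (others 34.4 to 43.5).

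The effect of the expander was called as differing between days, by edgeR's joint quasi-likelihood test, for Rps24 (adjusted p = 0.0373), Sesn2 (adjusted p = 0.00243), Grwd1 (adjusted p = 0.0190), Tsr2 (adjusted p = 0.0202), Snhg1 (adjusted p = 0.00515), Gas5 (adjusted p = 0.0279) and Mrps12 (adjusted p = 0.0232). Of all tested genes 8.82% were called. Rps24 kept its call in 10 of 22 leave-one-out fits and 6 of 10 other settings, and refits of the other genes' calls are not given here. Gas5, a noncoding host of small nucleolar RNAs, had log2 fold changes of 0.71, -0.18 and -0.15 on days 1, 2 and 4. Mrps12, of the mitochondrial small subunit, had -0.15, 0.26 and 0.92. Sesn2 had 1.14, 0.24 and -0.36.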

How the results depend on the processing

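The count of members that rose on day 1 moved by over 1.5 times only on one side of the library split (33). Beyond those printed above, the shares of all genes called under these settings are not given here. On day 2 it was 7 in the compared libraries alone, 30 with library totals, 8 with limma voom, 0 on one side of the split and 2 with the replicate block. On day 4 it was 1 in the compared libraries alone, 18 with the split as covariate, 63 with library totals, 1 on one side and 20 with the length offset. The joint day effect called 2 members with DESeq2, 0 with library totals, with pseudogenes summed (added after seeing the data) or without a filter, and 4 with the length offset. Change within EXP called 2 with DESeq2, 8 with the length offset, and 0 in the compared libraries alone, with library totals, with pseudogenes summed, without a filter or on one side of the split; change within CTRL called 1 with limma voom. Leaving out each library gave 60 to 72 members on day 1, 0 to 1 on day 2, 5 to 52 on day 4, 0 to 2 for the joint effect, 0 to 3 within EXP and 0 to 1 within CTRL.

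With library totals, 3 (day 2) and 5 (day 4) of 6 core ribosome genes rose, and 14 of 21 other TOP mRNAs (day 2). The mTORC1 list had 6 and 3 of 20 on days 2 and 4, chaperones 8 and 7 of 10, and mitochondrial ribosomal proteins 48 and 58 of 77. Of all 17554 tested genes, library totals called 5129, 4632 and 5289 on days 1, 2 and 4. The median of all genes was then 0.49 on day 2 and 0.36 on day 4, so these counts are not read as particular to the lists. Of all calls with library totals, 66.2%, 90.5% and 80.8% were higher in EXP on days 1, 2 and 4, against 48.7%, 57.5% and 57.0% with TMM. The length offset gave 59.0% on day 1. Outside the 10 most abundant genes the median share of counts was 0.499, 0.872, 0.546, 0.758, 0.506 and 0.980% from D1 CTRL to D4 EXP, and the day 2 groups then overlapped (CTRL up to 0.710%, EXP from 0.705%). With pseudogenes added it was 0.705, 1.49, 0.669, 1.26, 0.648 and 1.63% from D1 CTRL to D4 EXP.

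CTRL and EXP libraries with a common number had deviations from their group means that correlated at -0.0664 to 0.164, so the numbers were not taken as pairs; the replicate block gave 73, 2 and 36 members on days 1, 2 and 4 and 1 for the joint effect, and cannot be estimated for changes within an arm. There were 1218, 1044 and 1102 refitted values of named genes on days 1, 2 and 4. Of these, 1151, 989 and 973 kept their result of passing or not, and 0 were marked as reversed. Estimates that did not pass could still change sign. On day 2 Rpl41 ran from -0.20 to 0.44 and Rpl22 from -0.32 to 0.25 over 18 alternatives, all counted as kept. Counting error limits members under 0.140 CPM.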
